A study of Homo sapiens with 6 samples.

Results

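The epithelial-mesenchymal transition (EMT) regulators and mesenchymal markers described here are the genes SNAI1, SNAI2, ZEB1, ZEB2, TWIST1, TWIST2, VIM, CDH2, CDH11 and AXL, chosen by name. The choice was made with earlier results of these data known. Of these 10 genes, 8 were matched by symbol to the 16570 genes of the expression table, and 6 had a mean FPKM (fragments per kilobase of transcript, scaled to sequencing depth) of at least 1, the filter set on the test. TWIST1 and TWIST2 were not analysed here. The genes were measured by RNA-seq of polyadenylated RNA in BR cells, the brain-metastatic variant of the triple-negative human breast cancer line MDA-MB-231, to ask which genes respond to loss of the cancer-testis gene SPANXB1. BR-shCON cells, the control, carry an empty vector. BR-shSPANXB1 cells carry a lentiviral short hairpin RNA against SPANXB1, with the sequence that the study had found most efficient in a first round of silencing. Both are lines selected with puromycin and grown in DMEM with serum, and the study kept its BR cells in G418. Each group had 3 samples, all from this single pair of lines, and the labels do not say whether they came from separate cultures. The study's methods state, for its experiments in general, that replicates were made from separate batches of cells. P-values measure the spread between these samples.

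EMT is the programme by which epithelial cells loosen their junctions and take on a motile form. SNAI1 (Snail), SNAI2 (Slug), ZEB1 and ZEB2 are zinc finger repressors that bind E-box motifs in promoters of junction genes such as CDH1, which encodes E-cadherin. Vimentin (VIM), N-cadherin (CDH2), cadherin 11 (CDH11) and the receptor tyrosine kinase AXL are widely used markers of the mesenchymal state, which MDA-MB-231 cells are known for.

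SPANXB1, the silenced gene, measured 445, 563 and 515 FPKM in the control samples and 232, 260 and 248 FPKM in the silenced samples. All silenced samples lay below all controls, and the silencing was partial (log2 fold change -1.11, edgeR adjusted p = 1.8e-14), though reads may be shared with near-identical SPANX genes. Estimated counts summed to 16294462 to 16666167 per sample, so depth differed little between samples. Of markers known from the parent line, CD44 and EGFR stood at means of 202 and 146 FPKM over the 6 samples, the oestrogen receptor ESR1 at 0.72 FPKM and CDH1 at 0.0133 FPKM.

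SNAI2 fell and AXL rose in BR-shSPANXB1 cells, while VIM, CDH11, ZEB1 and ZEB2 did not pass the test. The fall of SNAI2 was to 0.761 of the control level and the rise of AXL was to 1.17 times it, both by the fitted fold. In RNA from whole cultures, fewer cells with a transcript and less of it per cell cannot be told apart. By edgeR's quasi-likelihood test, with an adjusted p under 0.05 over the 11439 genes tested, 2 of the 6 tested genes were called, where 13.8% of all tested genes were (780 higher, or 6.82%, and 799 lower, or 6.98%). None of the 6 passed the criteria of the study, which also ask for a log2 fold change beyond 0.59 in either direction and for control cells above 1 FPKM, and which 0.621% of all tested genes met. The count was also 0 with DESeq2 and limma, since no fold reached that size. The groups did not overlap in FPKM for SNAI2 and AXL, against 28.6% of all tested genes.

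The levels spanned a wide range on the FPKM scale, which is per length and so can be set between genes. VIM was the highest, with a mean over the 6 samples of 2263 FPKM and rank 20 of the 11439 tested genes. AXL (286 FPKM, rank 219) and CDH11 (88.4 FPKM, rank 953) followed. SNAI2 (23.4 FPKM, rank 3883) stood above ZEB1 (17.7 FPKM, rank 4833), and ZEB2 (2.97 FPKM, rank 10075) was far below both. SNAI1 (0.728 FPKM) and CDH2 (0.0967 FPKM) lay under the filter. No sample of any gene in this order overlapped with a sample of the next, so all neighbours were separated beyond their spread. CDH11 was thus the main cadherin among these markers, and CDH2 was close to 0.

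**Figure D1:**
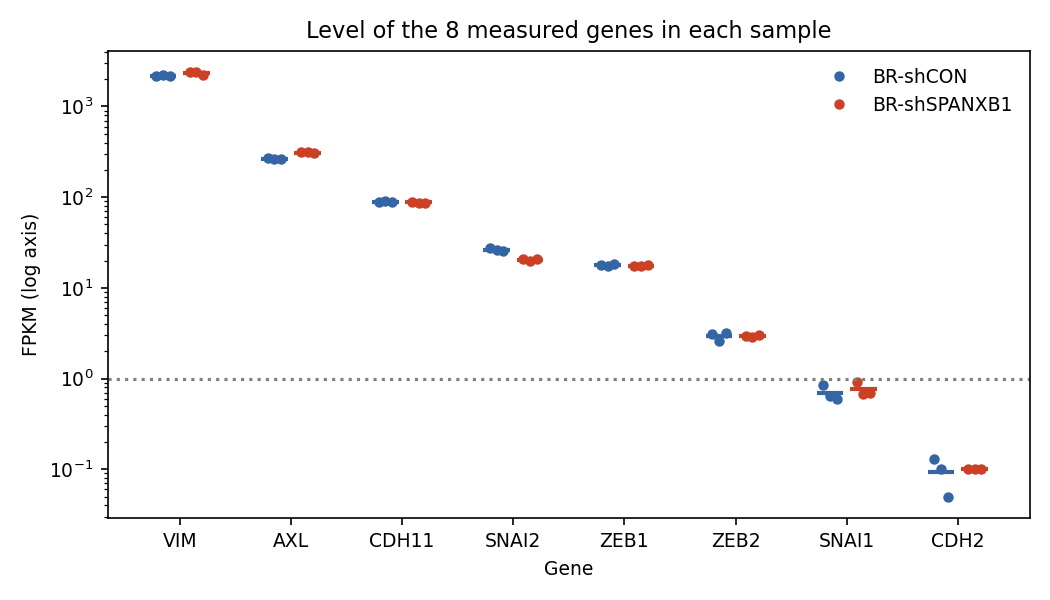
FPKM (log axis) of the 8 measured genes in each of the 3 BR-shCON (blue) and 3 BR-shSPANXB1 (red) samples, with short lines at the group means and a dotted line at the filter of 1 FPKM. The genes run from VIM, at a mean of 2263 FPKM, to CDH2, at 0.13 FPKM or less, and the gap between the groups is visible by eye for SNAI2.

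SNAI2, the repressor known as Slug, was the most abundant of the 4 EMT transcription factors measured. It was the only factor called among the 3 tested. Its level was 27.79, 25.96 and 25.49 FPKM in the control samples and 20.64, 19.72 and 20.58 FPKM in the silenced samples, from 872, 810 and 799 counts against 637, 620 and 639. Every silenced sample was below every control, and the gap between the groups was wider than the range within either. The mean was 26.4 ± 1.22 FPKM (SD, n = 3) in the control and 20.3 ± 0.515 FPKM (SD, n = 3) in the silenced cells. The log2 fold change was -0.39 with a standard error of 0.06 and a 95% interval of -0.51 to -0.28 (edgeR adjusted p = 1.1e-05). Of the 799 genes called lower, 135 (16.9%) changed more. An exact permutation test of the 3 against 3 samples, two-sided, gave p = 0.1, the smallest it can give.

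ZEB1 and ZEB2, the zinc finger and homeodomain repressors, stayed within their replicate spread. ZEB1 was at 17.74, 17.35 and 18.54 FPKM in the control samples and 17.34, 17.45 and 18.07 FPKM in the silenced samples, and the groups overlapped. Its log2 fold change of -0.04 had a 95% interval of -0.13 to 0.05 (edgeR adjusted p = 0.62). ZEB2 was at 3.14, 2.59 and 3.22 FPKM against 2.98, 2.91 and 2.99 FPKM, again overlapping. Its log2 fold change was -0.02 with an interval of -0.17 to 0.13 (edgeR adjusted p = 0.88), and it was 0.01 without BR-shCON sample 1 and 0.04 without BR-shCON sample 3. For both genes the interval leaves out a change of the size seen for SNAI2.

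SNAI1, the repressor Snail, was at 0.85, 0.64 and 0.6 FPKM in the control samples and 0.91, 0.68 and 0.69 FPKM in the silenced samples. These values rest on 14 to 21 counts per sample and the groups overlapped. In the fit without the filter its fold was 1.08 with a 95% interval of 0.705 to 1.64 (edgeR adjusted p = 0.88), so a fall as large as that of SNAI2 was not detectable at this depth.

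The make-up of the factor transcripts is given as a description, since it follows from the fall of SNAI2 beside a ZEB1 that did not pass. The FPKM of SNAI2, ZEB1, ZEB2 and SNAI1 summed to 47.9 ± 1.5 in the control and 41.7 ± 0.777 in the silenced cells (SD, n = 3). SNAI2 made up 56.1, 55.8 and 53.3% of that sum in the control samples and 49.3, 48.4 and 48.6% in the silenced samples. The ratio of SNAI2 to ZEB1 was 1.57, 1.50 and 1.37 in the control and 1.19, 1.13 and 1.14 in the silenced samples. Neither measure overlapped between the groups.

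AXL, a receptor of the TAM family (TYRO3, AXL, MERTK) linked to invasion and drug resistance, was the only mesenchymal marker called among the 3 tested. Its level was 267.94, 260.61 and 261.4 FPKM in the control samples and 313.16, 311.88 and 303.95 FPKM in the silenced samples. Every silenced sample lay above every control, and the means were 263 ± 4.02 and 310 ± 4.99 FPKM (SD, n = 3). The log2 fold change was 0.22 with a standard error of 0.04 and a 95% interval of 0.15 to 0.30 (edgeR adjusted p = 1.0e-04). The rise was modest among its kind, since 406 of the 780 genes called higher (52.1%) changed more. The exact permutation test gave p = 0.1, the smallest possible.

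VIM encodes the intermediate filament protein vimentin. It was at 2179.61, 2237.11 and 2144.74 FPKM in the control samples and 2399.75, 2399.52 and 2219.67 FPKM in the silenced samples. Silenced samples 1 and 2 lay above all controls, and silenced sample 3 lay below control sample 2. The log2 fold change of 0.08 had a 95% interval of -0.0022 to 0.16 (edgeR adjusted p = 0.2). When samples of the same number were paired through a replicate block, it was again 0.08 and passed (edgeR adjusted p = 0.0060), where 25.7% of all tested genes did. VIM took 0.348 ± 0.00709% of all counts in the control and 0.37 ± 0.0173% in the silenced cells (SD, n = 3).

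CDH11, an adhesion molecule typical of osteoblasts and mesenchymal cells, was at 88.25, 91.23 and 88.86 FPKM in the control samples and 88.67, 86.72 and 86.71 FPKM in the silenced samples. The groups overlapped, and the log2 fold change was -0.06 with a 95% interval of -0.13 to 0.02 (edgeR adjusted p = 0.37). Against CDH11 as a marker that did not pass, AXL stood at a ratio of 2.95 ± 0.0902 in the control and 3.55 ± 0.0473 in the silenced cells (SD, n = 3). CDH2, or N-cadherin, was at 0.13, 0.1 and 0.05 FPKM against 0.1 FPKM in each silenced sample, from 3 to 8 counts. Its unfiltered fold had an interval of 0.421 to 2.07, and no change of CDH2 could be read at this depth.

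**Figure D2:**
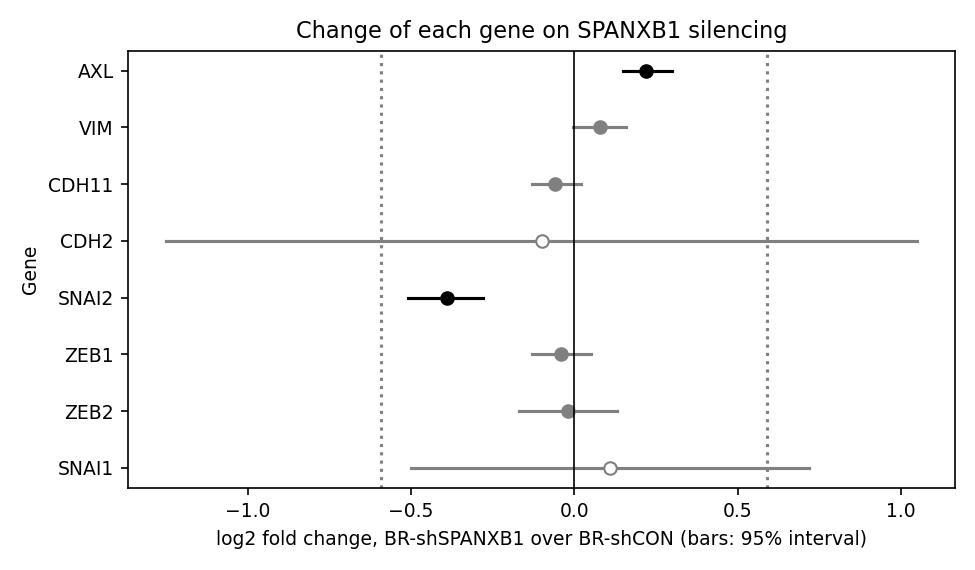
The log2 fold change of each of the 8 measured genes, BR-shSPANXB1 over BR-shCON, with 95% intervals and dotted lines at the fold criterion of the study (0.59 in either direction). Black marks are called by edgeR (AXL at 0.22 and SNAI2 at -0.39), grey marks are not, and open circles are SNAI1 and CDH2, fitted without the filter and with wide intervals.

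The ligands of the TAM receptors moved in opposite directions. GAS6, the ligand that binds AXL with high affinity, was at 51.83, 51.6 and 46.66 FPKM in the control samples and 63.86, 60.43 and 57.17 FPKM in the silenced samples, with no overlap. It rose with a log2 fold change of 0.26 and a 95% interval of 0.16 to 0.36 (edgeR adjusted p = 3.0e-04). PROS1, or protein S, a ligand of TYRO3 and MERTK, was at 20.03, 19.12 and 19.56 FPKM against 17.02, 14.65 and 17.29 FPKM, again with no overlap. It fell by 0.27 on the log2 scale, with an interval of -0.39 to -0.16 (edgeR adjusted p = 0.0013). The ratio of GAS6 to PROS1 was 2.59, 2.70 and 2.39 in the control and 3.75, 4.12 and 3.31 in the silenced samples.

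The other TAM receptors were far less abundant than AXL and did not pass the test. MERTK had means of 7.32 ± 0.147 and 6.74 ± 0.28 FPKM (SD, n = 3) and a log2 fold change of -0.13 (95% interval -0.27 to 0.005, edgeR adjusted p = 0.2). Its groups did not overlap in FPKM, which held for 28.6% of all tested genes. TYRO3 had means of 2.52 ± 0.0777 and 2.58 ± 0.0755 FPKM. Its fitted log2 fold change of -0.05 (interval -0.21 to 0.11, edgeR adjusted p = 0.74) had the opposite sign to its FPKM, and neither differed from 0 beyond its error.

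**Figure D3:**
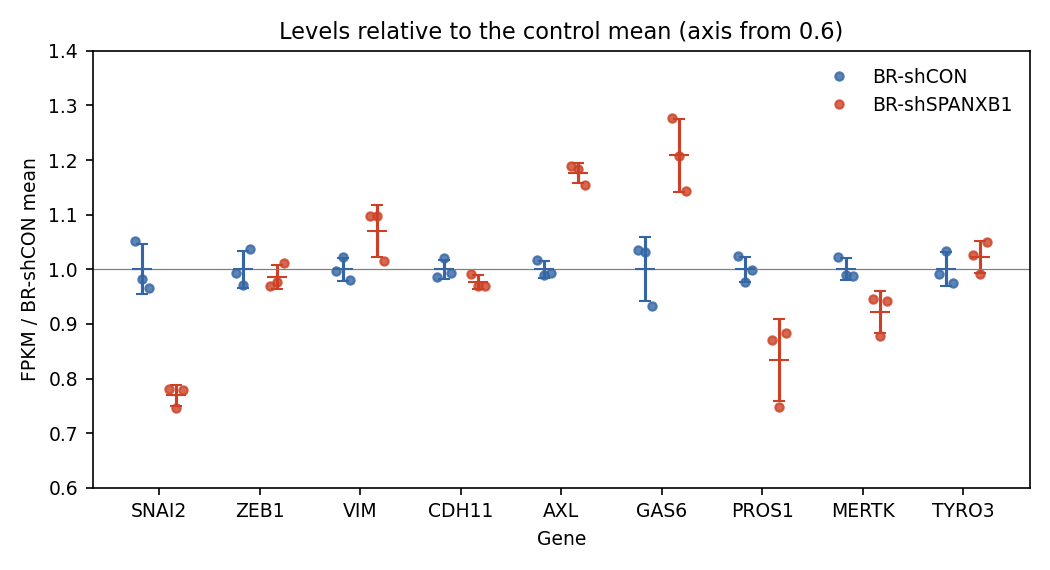
FPKM divided by the BR-shCON mean of the same gene, for each sample (points) with the group mean and SD (bars), n = 3 per group, on an axis that starts at 0.6. SNAI2, PROS1 and MERTK lie below 1 and AXL, GAS6 and VIM above 1 in every silenced sample, though MERTK and VIM did not pass the test. ZEB1, CDH11 and TYRO3 lie near 1, with CDH11 slightly below it in every silenced sample.

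The promoters of AXL and its ligand GAS6 are shown because both genes rose, together with those of DSP and CLDN4, epithelial genes that rose as well. Sequences are RefSeq windows of GRCh38.p14, 250 bases before to 50 after the gene start, in the 5′ to 3′ direction of the gene. Capitals mark the E-box of the SNAI and ZEB factors, CACCTG or its reverse complement CAGGTG, searched on both strands. The AXL window is chr19:41218973-41219272 on the plus strand and has the motif at -106 from the start. The GAS6 window is chr13:113864027-113864326 on the minus strand, with the motif at -244. The DSP window, chr6:7541421-7541720 on the plus strand, holds it at -178 and -85, and the CLDN4 window, chr7:73830746-73831045 on the plus strand, holds none.
AXL: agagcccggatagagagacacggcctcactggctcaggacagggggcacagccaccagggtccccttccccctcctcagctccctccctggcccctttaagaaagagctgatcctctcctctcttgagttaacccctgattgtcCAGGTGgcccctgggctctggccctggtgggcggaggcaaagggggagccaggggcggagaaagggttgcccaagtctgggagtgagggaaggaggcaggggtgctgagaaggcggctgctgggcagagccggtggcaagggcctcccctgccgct
GAS6: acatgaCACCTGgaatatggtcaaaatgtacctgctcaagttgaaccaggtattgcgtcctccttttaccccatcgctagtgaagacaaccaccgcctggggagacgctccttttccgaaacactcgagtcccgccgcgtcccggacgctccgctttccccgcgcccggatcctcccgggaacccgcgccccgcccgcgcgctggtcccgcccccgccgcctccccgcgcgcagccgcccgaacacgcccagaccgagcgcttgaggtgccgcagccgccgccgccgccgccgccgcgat
DSP: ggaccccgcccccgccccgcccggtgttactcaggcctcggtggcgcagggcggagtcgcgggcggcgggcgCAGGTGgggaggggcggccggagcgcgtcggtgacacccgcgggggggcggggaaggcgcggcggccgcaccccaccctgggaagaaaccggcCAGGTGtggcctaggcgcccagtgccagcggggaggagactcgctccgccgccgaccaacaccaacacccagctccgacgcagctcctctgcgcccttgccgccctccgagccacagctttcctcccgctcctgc
CLDN4: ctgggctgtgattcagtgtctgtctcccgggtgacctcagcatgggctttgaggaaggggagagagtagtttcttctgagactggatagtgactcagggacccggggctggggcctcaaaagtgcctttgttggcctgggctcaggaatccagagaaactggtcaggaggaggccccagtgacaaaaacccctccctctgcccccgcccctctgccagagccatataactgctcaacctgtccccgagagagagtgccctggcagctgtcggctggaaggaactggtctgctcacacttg

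Such a motif was common, with 20.6% of 35116 promoter windows and 24.1% of 27305 genes holding it in any window. A second AXL window, and the windows of VIM, ZEB2, CDH2, PROS1 and KRT8, held none. ZEB1, which did not pass the test, had the motif at -57 in 1 window and at -242, -85 and 34 in another. In the list of epithelial genes repressed by EMT factors, 11 of 17 genes with a window held it (64.7%), and 4 of the 17 have more than 1 window. Among the 9 of these that were tested, 6 held the motif: 1 rose (DSP), 1 fell (OCLN) and 4 did not pass. Of the other 3, CLDN4 and KRT8 rose without it. A motif match is a description of the sequence and does not show binding.

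Among epithelial genes that these factors repress, 15 of 32 listed were tested, of which 3 rose, 2 fell and 10 did not pass (33.3% called, against 13.8% of all tested genes), and the list had a median log2 fold change of 0.04 against 0.00023 for all tested genes. This list and those below were chosen with earlier results of these data known, so their shares of calls are a description. CLDN4, a tight junction claudin, rose from 6.56 ± 1.04 to 10.6 ± 0.722 FPKM (SD, n = 3, log2 fold change 0.67, edgeR adjusted p = 3.9e-05). DSP, the desmosomal plaque protein desmoplakin, rose by 0.24 on the log2 scale (edgeR adjusted p = 4.8e-05) and KRT8, keratin 8, by 0.19 (edgeR adjusted p = 9.5e-04). EPCAM, an epithelial adhesion molecule, fell by 0.35 (edgeR adjusted p = 0.031), and the tight junction protein OCLN, named after its value was seen, fell by 0.22 (edgeR adjusted p = 0.039). The EPCAM call was lost without BR-shCON sample 1 or 3 or BR-shSPANXB1 sample 2 or 3 (edgeR adjusted p = 0.19, 0.057, 0.096 and 0.077), and that of OCLN without BR-shCON sample 2 or 3 or BR-shSPANXB1 sample 1, 2 or 3 (edgeR adjusted p = 0.058, 0.16, 0.087, 0.1 and 0.077). Neither fall was called by DESeq2 (adjusted p = 0.11 and 0.13) or limma on log2(FPKM + 0.1) (adjusted p = 0.075 and 0.057), while the rises of CLDN4, DSP and KRT8 were called in all 17 alternatives. The list had 3 calls without BR-shCON sample 3 or BR-shSPANXB1 sample 2. CDH1 was at 0.0167 FPKM in the control and 0.01 FPKM in the silenced cells, too low to read a change.

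Of 22 other EMT regulators listed, 15 were tested, of which 6 fell, 1 rose and 8 did not pass (46.7% called, against 13.8% of all tested genes, of which 6.98% fell), with a median log2 fold change of -0.07. As this list was also chosen with earlier results known, its share of calls is a description. FOXQ1, a forkhead factor, fell from 13.1 ± 0.897 to 10.2 ± 0.923 FPKM (SD, n = 3, log2 fold change -0.38, edgeR adjusted p = 4.3e-04). ID1, an inhibitor of basic helix-loop-helix factors, fell by 0.24 (edgeR adjusted p = 0.0060) and HMGA1, an abundant chromatin protein at a mean of 531 FPKM, by 0.20 (edgeR adjusted p = 0.0065), a call that DESeq2 did not make (adjusted p = 0.1). HMGA1 was also not called by limma on log2(FPKM + 0.1) (adjusted p = 0.11), and its groups overlapped in FPKM. Further calls, named after their values were seen, were LEF1 (-0.32), TCF3 (-0.18) and HMGA2 (-0.17), all lower. The ID1 call was lost without BR-shSPANXB1 sample 2 (edgeR adjusted p = 0.054), that of LEF1 without BR-shSPANXB1 sample 1 or 3 (edgeR adjusted p = 0.068 and 0.057) and that of TCF3 without BR-shCON sample 1 or BR-shSPANXB1 sample 1 (edgeR adjusted p = 0.11 and 0.057). Limma on log2(FPKM + 0.1) called neither LEF1 (adjusted p = 0.059) nor TCF3 (adjusted p = 0.062), and DESeq2 did not call LEF1 (adjusted p = 0.079).

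Corepressors are the cofactors through which these factors silence genes. All 15 listed corepressors were tested, of which 1 rose, 2 fell and 12 did not pass (20% called, near the 13.8% of all tested genes), and the list had a median log2 fold change of 0.01. SMARCA4, the BRG1 ATPase, fell from 43.4 ± 1.26 to 38.6 ± 0.64 FPKM (SD, n = 3, log2 fold change -0.18, edgeR adjusted p = 0.0019). CTBP1, a corepressor of ZEB proteins, fell by 0.18 (edgeR adjusted p = 0.0094), while its relative CTBP2 had -0.11 and did not pass (edgeR adjusted p = 0.067, or 0.0034 with the replicate block). SIN3A, a histone deacetylase scaffold, rose by 0.13 (edgeR adjusted p = 0.025). The CTBP1 call was lost without BR-shCON sample 2 (edgeR adjusted p = 0.063) and that of SIN3A without BR-shCON sample 1 or BR-shSPANXB1 sample 2 or 3 (edgeR adjusted p = 0.097, 0.1 and 0.08). Limma on log2(FPKM + 0.1) called neither CTBP1 (adjusted p = 0.11) nor SIN3A (adjusted p = 0.08), and DESeq2 did not call SIN3A (adjusted p = 0.054). The list had 5 calls without BR-shCON sample 3 and 8 with the replicate block.

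Genes that set the stability of the factor proteins did not pass the test, with 1 exception. Of 19 listed genes, 16 were tested, of which 1 fell and 15 did not pass (6.25% called, against 13.8% of all tested genes), and the median log2 fold change was -0.01. The exception was FBXO45, a ubiquitin ligase subunit that targets EMT factors, which fell from 13.6 ± 0.49 to 11 ± 0.401 FPKM (SD, n = 3, log2 fold change -0.32, edgeR adjusted p = 2.9e-05). CTDSP1, a phosphatase of Snail, had -0.16 (edgeR adjusted p = 0.082, or 0.0099 with the replicate block), BTRC, the F-box protein beta-TrCP, 0.10 and the kinase PAK1 0.10 (both edgeR adjusted p = 0.26). The list had 2 calls with the replicate block, and 2 without BR-shCON sample 3 or BR-shSPANXB1 sample 1.

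The wider mesenchymal genes split evenly. Of 32 listed genes, 21 were tested, of which 3 rose, 3 fell and 15 did not pass (28.6% called, against 13.8% of all tested genes), and the list had a median log2 fold change of -0.02. THBS1, the matrix protein thrombospondin 1, rose from 44.6 ± 1.41 to 56.6 ± 1.71 FPKM (SD, n = 3, log2 fold change 0.34, edgeR adjusted p = 4.3e-07). CDH4, or R-cadherin, fell by 0.32 (edgeR adjusted p = 4.0e-06) and the actin-binding protein CALD1 by 0.26 (edgeR adjusted p = 4.3e-04). Also called, and named after their values were seen, were LOXL2 (0.13), a matrix cross-linking oxidase, and TNS1 (-0.33), a focal adhesion protein. The LOXL2 call was lost without BR-shCON sample 3 or BR-shSPANXB1 sample 2 or 3 (edgeR adjusted p = 0.12, 0.14 and 0.051). Limma on log2(FPKM + 0.1) did not call LOXL2 either (adjusted p = 0.071).

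Among 18 listed cadherins and catenins, 9 were tested, of which 2 fell and 7 did not pass (22.2% called, against 13.8% of all tested genes), and the median log2 fold change was -0.06. CDH10 fell from 1.99 ± 0.141 to 1.31 ± 0.202 FPKM (SD, n = 3, log2 fold change -0.62, edgeR adjusted p = 0.0030) and CDH4 was the other. CTNNB1, which encodes beta-catenin, stood at 156 and 151 FPKM and had -0.07 (edgeR adjusted p = 0.28, or 0.033 with the replicate block). Of the 14 listed intermediate filament genes and vimentin partners, 7 were tested, of which 1 rose and 1 fell. The share called was 28.6%, against 13.8% of all tested genes, and the median log2 fold change was 0.06. LMNA, the lamin A/C gene, rose by 0.14 (edgeR adjusted p = 0.014) and LMNB2, lamin B2, fell by 0.12 (edgeR adjusted p = 0.032). Of these LMNA lost its call without BR-shCON sample 3 or BR-shSPANXB1 sample 2 (edgeR adjusted p = 0.057 and 0.068), and LMNB2 without BR-shCON sample 1 or 2 or BR-shSPANXB1 sample 1 or 3 (edgeR adjusted p = 0.13, 0.084, 0.11 and 0.084). The list had 1 call in each of these exclusions but that of BR-shCON sample 1, where SYNM passed and it had 2, and it had 5 with the replicate block. Limma on log2(FPKM + 0.1) called neither LMNA (adjusted p = 0.051) nor LMNB2 (adjusted p = 0.12). SYNM, which encodes the vimentin partner synemin, had 0.18 (edgeR adjusted p = 0.064, or 0.017 with the replicate block).

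Markers of other cells were mostly near 0. Few genes of each marker list were tested, so calls among them are a description. Of all tested genes, 13.8% were called (6.82% higher and 6.98% lower). Fibroblast markers, which share the mesenchymal state, summed to 2.93 to 5.15 FPKM in the control samples and 3.32 to 3.88 FPKM in the silenced samples, and the 1 tested of 11 listed (ACTA2, -0.14, edgeR adjusted p = 0.7) did not pass. Without the filter, PDGFRA, a fibroblast receptor at 0.307 ± 0.0808 and 0.173 ± 0.0404 FPKM (SD, n = 3), was lower (log2 fold change -0.97, edgeR adjusted p = 0.012), named after its value was seen. That call rests on 25, 18 and 39 counts against 10, 19 and 13, which overlap. COL1A1 went the other way, from 0.813 to 1.07 FPKM, and did not pass (log2 fold change 0.38, edgeR adjusted p = 0.064). PDGFRB, COL3A1, THY1 and FAP also had positive fold changes in that fit and did not pass. Of 8 endothelial markers, 3 were tested and 1 fell (KDR, -0.36, edgeR adjusted p = 0.02), with a sum of 53 to 57 against 52.9 to 55.3 FPKM that was nearly all TIE1 (-0.04, edgeR adjusted p = 0.61), and PECAM1 had 0.31 (edgeR adjusted p = 0.25). CDH5, the defining cadherin of endothelium, was at 0.00667 FPKM in both groups. The KDR call was lost without BR-shCON sample 1 or 3 or BR-shSPANXB1 sample 2 or 3 (edgeR adjusted p = 0.05, 0.058, 0.11 and 0.09). KDR was also not called by DESeq2 (adjusted p = 0.079) or limma on log2(FPKM + 0.1) (adjusted p = 0.13). Of 8 leukocyte markers 1 was tested and fell (CD68, -0.21, edgeR adjusted p = 0.0013), with a sum of 76.4 to 78.8 against 65.9 to 70.7 FPKM, while PTPRC stood at 0.0167 and 0.03 FPKM. Of 9 neural and glial markers 2 were tested and 1 fell (SYT1, -0.22, edgeR adjusted p = 0.032), with a sum of 37.5 to 39.6 against 36.6 to 36.9 FPKM, mostly MBP (-0.05, edgeR adjusted p = 0.44). The SYT1 call was lost without BR-shCON sample 2 or 3 or BR-shSPANXB1 sample 1 or 2 (edgeR adjusted p = 0.093, 0.087, 0.07 and 0.12). Neither DESeq2 (adjusted p = 0.11) nor limma on log2(FPKM + 0.1) (adjusted p = 0.096) called SYT1. The breast line markers had 7 of 11 tested, with KRT8 higher, EPCAM lower, and sums of 797 to 823 against 839 to 871 FPKM. KRT18 had 0.11 (edgeR adjusted p = 0.056, or 6.5e-04 with the replicate block) and CD44 -0.05 (edgeR adjusted p = 0.45). The part of these markers in the changes of SNAI2 and AXL was not tested.

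The genes most like SNAI2 across the 6 samples, by Pearson correlation of log2(FPKM + 0.1), were KHSRP (r = 0.997), GABRE (0.994) and DUT (0.994). KHSRP, an RNA-binding protein, went from 128 ± 4.69 to 108 ± 1.32 FPKM and GABRE, a GABA receptor subunit, from 2.78 ± 0.144 to 2.14 ± 0.0321 FPKM (SD, n = 3). DUT, the dUTPase, went from 44.5 ± 1.09 to 39.6 ± 0.435 FPKM. The 6 points fall into the groups and share their libraries, so these values are a description, and 416 of 11438 genes had an r over 0.9.

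On GRCh38 with the GENCODE v29 annotation, AXL lies at chr19:41219203-41261766 on the plus strand, VIM at chr10:17228259-17237593 (plus), ZEB1 at chr10:31318495-31529814 (plus) and ZEB2 at chr2:144364364-144524583 (minus). SNAI1 lies at chr20:49982999-49988886 (plus), CDH2 at chr18:27950966-28177446 (minus) and CDH11 at chr16:64943753-65126112 (minus). Exons of VIM, ZEB1 and ZEB2 overlap those of the antisense genes VIM-AS1, ZEB1-AS1 and ZEB2-AS1. Exons of AXL and CDH2 also overlap those of a gene on the opposite strand (AC011510.1 and AC110015.1). CDH11 shares exon bases with AC010533.1 on the same strand. No step that marks strand is named in the library protocol, so reads of a gene and of a partner on either strand cannot be told apart where their exons overlap. SNAI1, ZEB2 and VIM also have a pseudogene by name (SNAI1P1, ZEB2P1, VIM2P), with which reads may be shared. The study also measured VIM by RT-qPCR, and its primers are shown to place that assay against the RNA-seq value. Both match coding bases of exon 1, at chr10:17229690-17229709 and chr10:17229907-17229927, and both also match VIM-AS1 transcripts.
Forward primer: gacgccatcaacaccgagtt
Reverse primer: ctttgtcgttggttagctggt

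The calls of SNAI2 and AXL held in all 17 alternatives, with log2 fold changes of -0.42 to -0.35 for SNAI2 and 0.20 to 0.24 for AXL. Their largest adjusted p values across these were 0.0019 and 0.016. VIM ranged from 0.03 to 0.11 and passed in 1 of the 17.

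**Figure D4:**
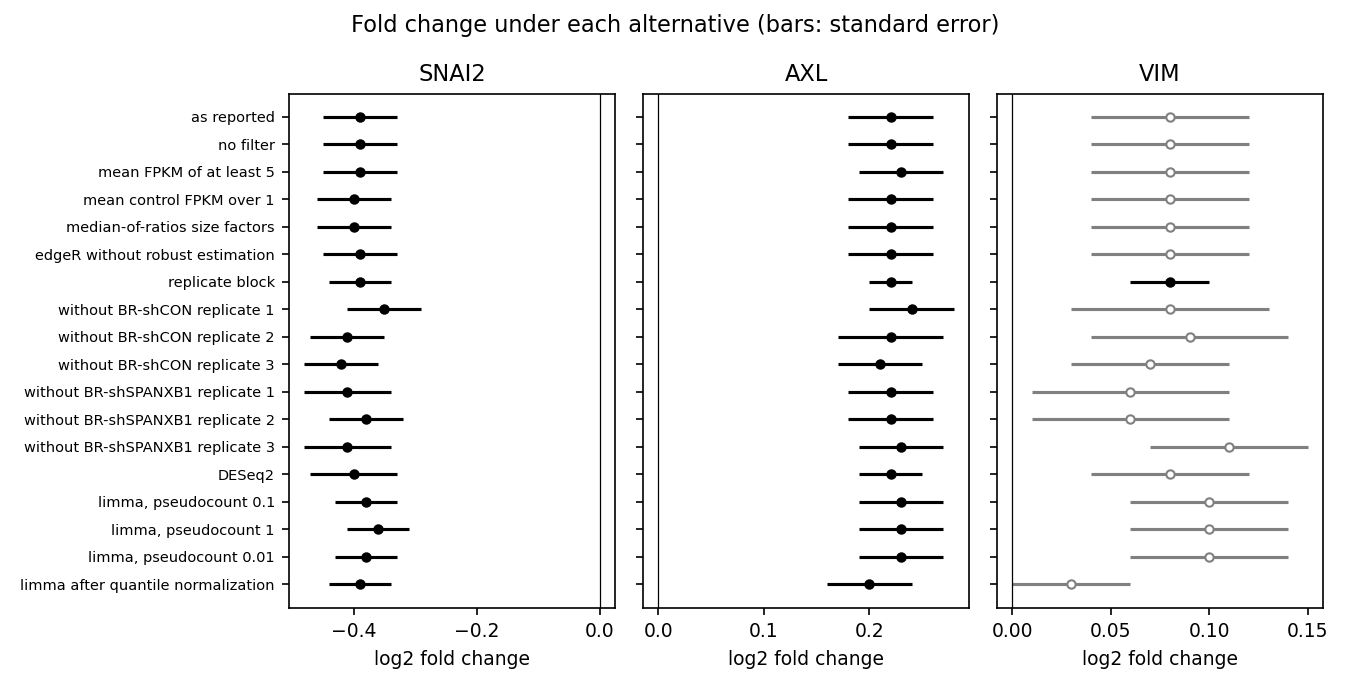
The log2 fold change of SNAI2, AXL and VIM with its standard error in the reported fit and under 17 alternatives, filled where the adjusted p was under 0.05. SNAI2 stays between -0.42 and -0.35 and AXL between 0.20 and 0.24, filled throughout, while VIM is filled with the replicate block alone.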

How the data were processed

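RNA-seq of 3 BR-shCON and 3 BR-shSPANXB1 samples was analysed, grouped by title and cell type. The extraction protocol, shared by all samples, names the parent lines instead. The authors deposited estimated counts, not normalized, and FPKM, scaled by the authors to transcript length and depth. TPM columns (6) and the authors' means (6) were not used. HISAT2 2.0.4, Bowtie2 2.2.5 and the build GRCh38.p12 stand, without roles, in the submitters' processing notes. For the counting program and the annotation, the sources used here give no name.

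Counts (14.5% of values not whole) were rounded and tested with edgeR 4.0.16 in R 4.3.3 (TMM, robust quasi-likelihood fit, Benjamini-Hochberg adjustment) over the 11439 genes whose mean FPKM reached 1. On simulated counts the fit was tested for known fold changes. Members and lists were chosen with earlier results of these data known. The lists were written from textbook knowledge. The text names all members, SPANXB1, AXL ligands and TAM receptors, up to 4 genes per other list by adjusted p, and the 3 genes most like SNAI2. Some genes under this rule are not reported here. Fold changes are fitted on counts and can differ from ratios of FPKM. An exact permutation test, two-sided, was run on log2(FPKM + 0.1) of single genes.

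As a check of pairing, each sample's deviation from its group mean was correlated, over genes, with that of the sample of the same number in the other group. The values were 0.138, 0.148 and 0.215 for numbers 1, 2 and 3. The highest values with a sample of another number were -0.00257, -0.00257 and -0.0974. Samples of the same number were thus more alike than samples of different numbers, though no label says what a number shares. The reported fit does not pair samples, and the numbers were treated as pairs in the replicate block alone. The alternatives were no filter, a filter at 5 FPKM, a filter on control samples alone, median-of-ratios size factors, no robust estimation, the replicate block, each sample left out, DESeq2 1.42.0, and limma 3.58.1 on log2 FPKM with pseudocounts of 0.1, 1 and 0.01 or after quantile normalization. Plots used Python 3.11.15 and matplotlib 3.10.9.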

Additional observations from a re-analysis of the deposited data

How the results depend on the processing

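Across the 17 alternatives, 2 members were called in each but 1, the replicate block, which added VIM. Genes called among all tested numbered 1579, and 2935 with the replicate block, 1020 with DESeq2, 866, 873 and 867 with limma at pseudocounts of 0.1, 1 and 0.01, and 894 after quantile normalization. Leaving out 1 sample gave 1041 to 1466, the lowest without BR-shSPANXB1 sample 2. The limma fits on FPKM moved the median of all genes by 0.02 and called 516 higher and 350 lower at a pseudocount of 0.1, against 780 and 799. The replicate block gave 8 calls among corepressors (3 as reported), 2 among turnover genes (1) and 5 among intermediate filaments (2), and changed the calls of VIM, CTBP2, CTDSP1, CTNNB1, SYNM and KRT18 among the named genes. The limma fits gave 1 corepressor, 4 other EMT regulators, 3 epithelial genes and 0 intermediate filament genes. Quantile normalization gave 1 corepressor and 0 intermediate filament genes, DESeq2 gave 3 epithelial genes, and the filter at 5 FPKM left 1 cadherin. Leaving out 1 sample gave 2 to 5 corepressors, 1 to 2 turnover genes, 3 to 4 epithelial genes and 1 to 2 intermediate filament genes. For all of these the cause was not tested. TYRO3 turned to 0.03, 0.02 and 0.03 with limma at the same pseudocounts and 0.0093 after quantile normalization, ZEB2 to 0.01 and 0.04 without BR-shCON sample 1 or 3 (range -0.12 to 0.04 when 1 sample was left out), and ACTA2 to 0.16 without BR-shCON sample 1 (range -0.30 to 0.16). Of 907 values of single genes, 800 kept direction and side of the threshold, 88 lost the call, 12 gained it and 7 turned sign. SNAI1 and CDH2 were limited by depth.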
